A study of Mus musculus with 3 samples.

Results

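Mitochondrial ribosomal proteins were examined in a mouse model of diffuse-type gastric cancer, as the genes whose names begin with Mrpl (large subunit) or Mrps (small subunit) followed by a digit. The array carried 75 such genes among 31896 gene names, 46 of the large and 29 of the small subunit, on 95 of 39429 probes. All 95 probes kept the same symbol through their accession. Of these genes 74 entered the test, on 94 probes, and on each of the 3 arrays both their red and their green signals were well above background. The remaining gene, Mrpl21, is not well above background in either channel on any array. The members were defined by name, but they were chosen with earlier results of these data known.

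Each array set 1 primary diffuse-type gastric cancer, labelled with Cy5 (red), against one pool of normal gastric mucosa from 5 mice, labelled with Cy3 (green). The tumour mice carried Atp4b-Cre+, and the mice of the pool were Atp4b-Cre-. Both were homozygous for Cdh1loxP/loxP and for Trp53loxP/loxP, and both were 12 months old, so the floxed alleles were shared and the Cre transgene was not. Atp4b encodes a subunit of the proton pump with which parietal cells secrete acid, and its promoter drives the Cre that removes Cdh1 (E-cadherin) and Trp53 (p53). Stroma was stripped mechanically in 30 mM EDTA from the normal mucosae, while the labels state no such step for the tumours. Every array had the same dye orientation, and the pool is 1 sample, so variation among normal mice was not measured and dye and group cannot be told apart. The p-values measure the spread between the 3 tumours, which the labels call biological replicates.

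Mitochondrial ribosomes translate the few proteins encoded in mitochondrial DNA, all of them core subunits of the respiratory chain and ATP synthase. Their proteins are encoded in the nucleus, made in the cytosol and imported, and many of them have a counterpart in bacterial ribosomes while others are found only in mitochondria. Parietal cells are among the cells richest in mitochondria, since acid secretion consumes much ATP. Genes for mitochondrial proteins often carry promoter sites for ETS-family factors such as GABP, for NRF1 and for YY1.

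RefSeq promoter sequences (build GRCm38.p6) were matched by symbol for 66 of the 75 genes, in 72 windows of the 250 bases before a start site. The letters CCGGAAG, the core of an ETS site, stood on either strand in 17 member windows (23.6%) and in 6.91% of all 32851 windows. The letters GCATGCGC, an NRF1 site, stood in 8 member windows (11.1%) and in 2.26% of all, and AAGATGGCG, a YY1 site, in 2 member windows (2.78%) and in 0.606% of all. At least 1 of these motifs was found in 34.7% of member windows and in 9.31% of all windows. Of the windows below, 3 are whole and that of Mrpl51 is shortened to the part outside the neighbouring gene. They are shown because all hold the ETS letters while their genes' values differed: Mrpl51 was called lower, Mrps18a was lower at about the members' median, and Mrpl3 and Mrpl17 lay near 0. Capitals mark the motifs, and each sequence runs 5′ to 3′ on the gene's strand up to the base before its start. Mrpl51 is at chr6:125192101-125192199 (+ strand), Mrps18a at chr17:46110754-46111003 (+ strand), Mrpl3 at chr9:105053018-105053267 (+ strand) and Mrpl17 at chr7:105811088-105811337 (- strand).
Mrpl51: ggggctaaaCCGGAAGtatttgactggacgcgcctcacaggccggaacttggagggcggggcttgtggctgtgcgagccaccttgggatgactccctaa
Mrps18a: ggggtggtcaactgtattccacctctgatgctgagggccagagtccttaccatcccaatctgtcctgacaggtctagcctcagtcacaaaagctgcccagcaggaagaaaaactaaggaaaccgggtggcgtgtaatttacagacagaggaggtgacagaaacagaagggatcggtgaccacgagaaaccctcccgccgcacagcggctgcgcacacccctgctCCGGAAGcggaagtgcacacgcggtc
Mrpl3: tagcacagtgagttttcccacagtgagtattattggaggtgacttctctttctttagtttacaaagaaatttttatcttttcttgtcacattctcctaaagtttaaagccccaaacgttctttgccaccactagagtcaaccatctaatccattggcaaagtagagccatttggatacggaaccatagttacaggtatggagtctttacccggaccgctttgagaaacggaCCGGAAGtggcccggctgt
Mrpl17: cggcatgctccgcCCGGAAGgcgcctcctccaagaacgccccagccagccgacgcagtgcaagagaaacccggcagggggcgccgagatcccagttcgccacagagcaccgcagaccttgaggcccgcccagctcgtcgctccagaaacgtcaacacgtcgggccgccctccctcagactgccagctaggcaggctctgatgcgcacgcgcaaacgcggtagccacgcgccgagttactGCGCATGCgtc
An ETS core was thus printed beside genes that fell and beside genes that did not pass the test, and Mrpl17 also holds an NRF1 site. The 17 genes with the ETS letters had a median log2 ratio of -0.38 (9 fell, 52.9%) after the loess scaling described below. The 8 with the NRF1 letters had -0.23 (3 fell, 37.5%) and the 40 with none of the motifs -0.52 (25 fell, 62.5%). Of all genes tested 22.9% fell. Without loess, centred on all gene spots, these medians were 0.85, 1.04 and 0.62, where that of all genes was 0.77. The differences between these groups were not tested. A match is only a match of letters, and its absence says nothing about binding of a factor.

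All ratios are given as log2 of tumour signal over pool signal, in which -1 is a 2-fold lower and 0 an equal signal. Ratios were normalised by loess, which sets the typical gene of each brightness to about 0 on each array. A gene passed the test at an adjusted p under 0.05 (limma, Benjamini-Hochberg over 19434 genes, ratio against 0, two-sided), and was called where the difference was also at least 2-fold. In bulk tissue, fewer cells of a type and less RNA per cell cannot be told apart. Markers of the normal cell types of the stomach were much lower in the tumours: all 18 parietal cell markers fell, and their summed signal ran from 498000 to 543000 in the pool and from 16200 to 22600 in the tumours. The parietal markers Slc26a7, Hrh2 and Sstr2 were not well above background in any tumour. All 6 chief cell markers tested and 8 of 10 mucous cell markers fell, while 13 of 17 fibroblast, 16 of 16 macrophage and 18 of 19 dividing cell markers rose. The part of these cell types in the results on the ribosomal proteins was not tested.

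After loess, mitochondrial ribosomal protein genes were moderately lower in the tumours than in the pool, a sign against 0 that turned when loess was left out and arrays were centred on all gene spots. Of the 74 genes 43 (58.1%) fell, against 22.9% of all genes tested. None rose at an adjusted p under 0.05 in limma, where 24.5% of all genes did, and 0 were higher at an unadjusted p under 0.05. The other 31 did not pass the test. The count of members that fell was 27 (36.5%) without replicate 2, 28 (37.8%) without replicate 3 and 33 (44.6%) without replicate 1, and the share of all genes that fell dropped too, to 14.8%, 15.4% and 17.7%. Called at 2-fold or more were 13 members (17.6%) as lower, against 9.68% of all genes, and 0 as higher, against 9.33%. The members' median log2 ratio was -0.51, where that of all genes was 0.05, and the median member ranked above 19.6% of genes.

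The shift was alike in the 3 tumours, with member medians of -0.43, -0.57 and -0.48 on replicates 1, 2 and 3. Ratios were below 0 on all 3 arrays in 58 genes, of both signs in 15 and above 0 on all arrays in 1, Mrps11. Replicate 2 was the lowest array for 52.7% of members and for 33.1% of all genes. The typical member varied between tumours about as much as the typical gene, with a median SD of the ratio of 0.21 for members and 0.19 for all genes. The following values are for the typical member. Its pool signal, measured on the same RNA each time, had a median SD of 0.071 and its tumour signal one of 0.20, both in log2 units.

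**Figure D1:**
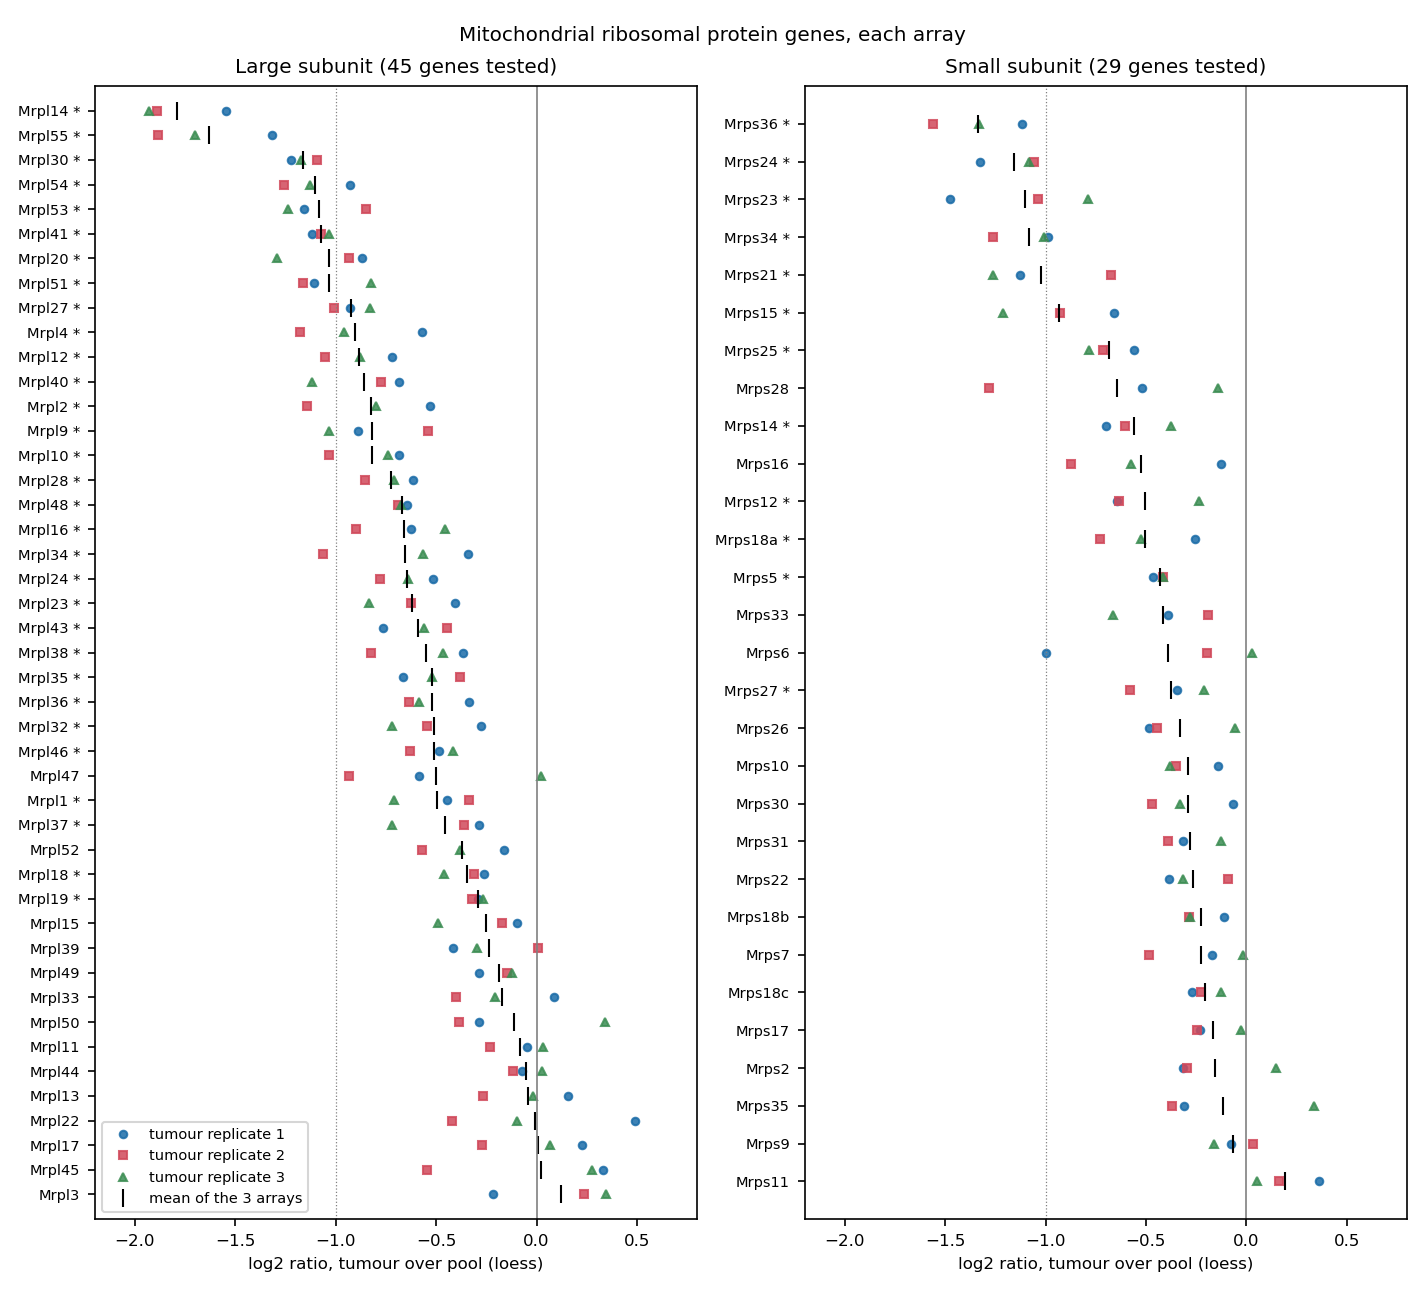
Log2 ratio of tumour over pool (horizontal, after loess) of each mitochondrial ribosomal protein gene tested, large subunit left and small subunit right. Each symbol is 1 tumour, the bar is the mean of 3, the dotted line is 2-fold lower, and a star marks the 43 genes that passed the test as lower; without loess, centred on all gene spots, the members' median was 0.67 and not -0.51.

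The direction against 0 depended on the scaling, which touches every fold below. Without loess, and with arrays centred on the median of all gene spots, the members' median was 0.67, 53 (71.6%) rose, 0 fell in limma and 17 were called higher. That scaling also raised the median of all genes to 0.77 and passed 60.0% of them as higher. With arrays centred on spike-in control spots instead, the members' median was -0.17 and that of all genes -0.08, and Mrpl14, Mrpl55 and Mrps36 alone fell, the first 2 by 2-fold or more. These are 4.05% of the members, where 24.1% of all genes fell in that setting. With centring on the tested genes, added after the data were seen, it was -0.09, with 12 members (16.2%) lower and 8 (10.8%) higher, against 30.9% and 30.8% of all genes. In both of these settings the members' share that fell was the smaller one, the reverse of the order after loess, and the differences in share were not tested. The difference between members and all genes was thus -0.56 after loess and -0.09 in the settings without it.

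These scalings treat bright and dim probes differently. Members have bright probes, with a median log2 brightness over both channels of 11.2 against 8.27 for all genes, and 56 of the 74 lay in the brightest 3 of 10 brightness deciles. Without loess the median of all genes climbed from -0.12 in the dimmest decile to 1.56 in the brightest. Set against the genes of their own decile, 68 of 74 members lay below the decile's median after loess and 67 of 74 without it. Loess shifts genes of like brightness nearly alike, so these counts could hardly differ and are no independent evidence. In the brightest decile, without loess, the 16 members had a median of 0.73 where all genes of that decile had 1.56.

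**Figure D2:**
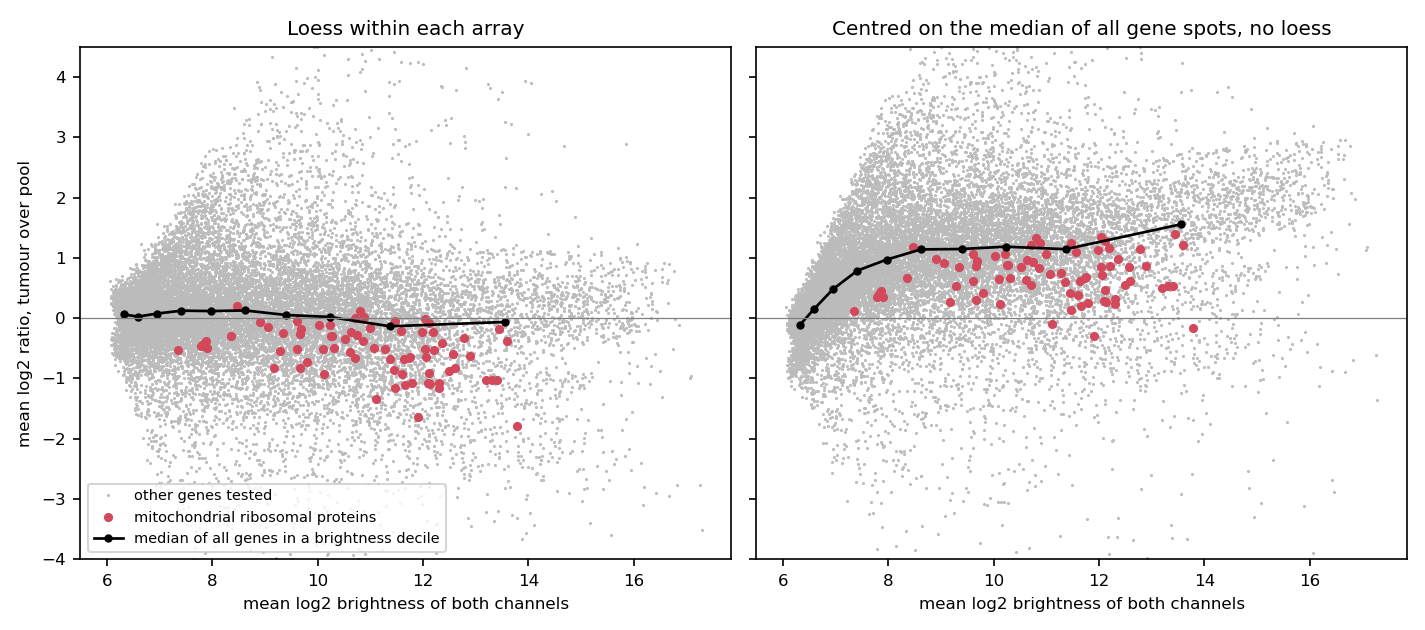
Mean log2 ratio of tumour over pool against mean log2 brightness of both channels, after loess (left) and without loess, centred on all gene spots (right), with a few genes beyond the vertical range not drawn. Grey points are genes tested, red points the 74 members and the black line the median per brightness decile; members lie mostly below that line in both panels, though above 0 in the right panel.

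Mrpl14, a conserved large subunit protein at the face that meets the small subunit, was the lowest member. Its log2 ratios were -1.55, -1.89 and -1.93 on replicates 1, 2 and 3, a mean of -1.79 ± 0.21 (SD, n = 3), 3.46-fold lower (limma, adjusted p = 0.00122). Its tumour signal of 12.8 to 13.0 on the log2 scale lay well apart from its pool signal of 14.5 to 14.8. The probe is at chr17:45835317-45835376 in mm9, the build of the file headers, and whether it lies in an exon or a UTR was not analysed here.

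Mrpl55, which has no bacterial counterpart, gave -1.32, -1.88 and -1.70, a mean of -1.63 ± 0.29, 3.1-fold lower (limma, adjusted p = 0.00221). All 3 tumours lay below the pool for both genes, and together with Mrps36 they were the only members that passed the test after loess and stayed below 0 in every scaling tried. Mrps36 gave -1.12, -1.56 and -1.33, a mean of -1.34 ± 0.22 (limma, adjusted p = 0.0025). Its protein was named as a small subunit member and was later assigned to the oxoglutarate dehydrogenase complex of the citric acid cycle.

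The other 10 called members lay between -1.02 and -1.16. They were Mrpl30 (mean -1.16), Mrpl54 (-1.10), Mrpl53 (-1.08), Mrpl41 (-1.08), Mrpl20 (-1.03) and Mrpl51 (-1.03) of the large subunit, and Mrps24 (-1.16), Mrps23 (-1.10), Mrps34 (-1.08) and Mrps21 (-1.02) of the small subunit. Each was below 0 on all 3 arrays, and each turned above 0 without loess when arrays were centred on all gene spots. Mrpl30 was among the tightest, at -1.22, -1.09 and -1.17, while Mrps23 spread from -1.47 in replicate 1 to -0.79 in replicate 3. With Agilent's processed signals 8 members were called, 7 of them among these 13, and with an offset of 0 in the background correction 8 of the 13 were. Of the 13 called, 8 have no bacterial counterpart, Mrps36 among them, and 5 have one, among 28 and 46 members tested of either kind. These are 28.6% and 10.9%, where 9.68% of all genes were called lower. With Agilent's processed signals 4 of each kind were called, and the difference between the kinds was not tested. The medians of these kinds were close, at -0.48 for the mitochondria-specific proteins (16 fell) and -0.51 for those with a bacterial counterpart (27 fell).

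Both subunits were shifted after loess. Lower were 31 of 45 large subunit genes (68.9%, median -0.55) and 12 of 29 small subunit genes (41.4%, median -0.39), against 22.9% of all genes. The subunits' medians without loess were 0.62 and 0.86 under centring on all gene spots, and -0.23 and 0.01 under centring on the spike-ins. Centred on all gene spots, 0 and 0 were lower and 32 and 21 higher, against 6.94% and 60% of all genes. On spike-ins 2 and 1 were lower and 0 and 0 higher, against 24.1% and 20.3%. On the tested genes 8 and 4 were lower and 7 and 1 higher, against 30.9% and 30.8%. The difference between the subunits was not tested. Mrps18a (-0.50, lower) and Mrps30 (-0.29, not passing) carry small subunit names although their proteins sit in the large subunit of the mammalian mitochondrial ribosome.

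By place in the ribosome, the stalk that recruits translation factors held Mrpl12 (-0.88) and Mrpl10 (-0.82), which fell, and Mrpl11, whose ratio was -0.08. Mrpl12 gave -0.72, -1.06 and -0.88 on the 3 arrays, and Mrpl11 gave -0.05, -0.23 and 0.03, so the tumours did not overlap between them. Around the site of peptide bond formation, Mrpl27 (-0.92), Mrpl2 (-0.82) and Mrpl16 (-0.66) fell and Mrpl3 (0.12) did not pass the test. Mrpl3 was of both signs, at -0.22, 0.24 and 0.35, and Mrpl27 was lower in every tumour, at -0.93, -1.01 and -0.83. All of these genes that fell turned above 0 without loess when centred on all gene spots.

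At the tunnel through which the new protein leaves, Mrpl24 (-0.65) and Mrpl23 (-0.62) fell, while Mrpl47 (-0.50), Mrpl22 (-0.01), Mrpl17 (0.01) and Mrpl45 (0.02) did not pass the test. Mrpl45, which anchors the ribosome to the inner membrane, was of both signs, at 0.33, -0.54 and 0.27. Replicate 2 was the low one there, as it was for Mrpl22 (0.49, -0.42 and -0.10) and Mrpl17 (0.22, -0.27 and 0.07). In the small subunit, Mrps24 at the mRNA entry (-1.16), Mrps12 of the decoding centre (-0.50) and Mrps5 (-0.43) fell. Mrps5 was among the tightest members, at -0.47, -0.41 and -0.41.

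At the upper end stood Mrps11, a conserved protein of the small subunit platform, at 0.36, 0.16 and 0.05 (mean 0.19 ± 0.16, limma adjusted p = 0.191). Next in the small subunit were Mrps9 (-0.07), Mrps35 (-0.11) and Mrps2 (-0.15), none of which passed the test. The ratios of Mrps11 lay above those of Mrps9 only narrowly, at 0.054 against 0.033 where nearest, and they overlapped with those of Mrps35 and Mrps2. These differences between probes were not tested. Some members with lower means spread widely between tumours and did not pass the test. Mrps28 gave -0.52, -1.28 and -0.14 (limma, adjusted p = 0.0872), and Mrps6 gave -1.0, -0.20 and 0.03 (adjusted p = 0.217), so replicate 2 was low for the former and replicate 1 for the latter.

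Repeated spots give the measurement error within an array. Mrpl34, Mrpl50 and Mrps35 each had a probe spotted 10 times per array. For Mrpl34, the ratios were -0.34, -1.07 and -0.57 on replicates 1, 2 and 3, and the SD between spots was 0.05 to 0.07, so the arrays differed by far more than the spots of an array did. Mrpl50 (-0.29, -0.39 and 0.34) and Mrps35 (-0.31, -0.37 and 0.34) were both above 0 in replicate 3 alone, again with a spot SD of 0.04 to 0.07. The SDs between spots were taken with flagged spots kept. Mrpl34 fell (limma, adjusted p = 0.0339), and Mrpl50 and Mrps35 did not pass the test.

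Of 20 members with more than 1 kept probe, 17 had probes within 0.5 of each other on the log2 scale. The exceptions were Mrpl41 (-1.08 and -0.12, 1 of 2 probes lower), Mrps25 (-0.68 and 0.21, 1 of 2 lower) and Mrpl27 (-0.92 and -0.39, both lower). The brighter probe stood for the gene, and for Mrpl41 the median of both probes was no longer called. Tested probe by probe, 22.8% of all probes were lower.

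Other parts of the mitochondrial ribosome appear under other names. Mrpl42 and Mrpl57, which the files name D10Ertd322e and Mrp63, had means of -1.14 ± 0.08 and -1.02 ± 0.32 and were called lower (limma, adjusted p = 0.00181 and 0.00823). Mrpl58, a release factor built into the large subunit, was at -1.0 ± 0.13 and Dap3, a GTP-binding small subunit protein, at -0.71 ± 0.28, and both fell. Ptcd3 (-0.32) fell narrowly (limma, adjusted p = 0.04996), while Aurkaip1 (-0.83), Chchd1 (-0.18) and Gadd45gip1 (0.18) did not pass the test. All of those that fell turned above 0 when centred on all gene spots without loess, Mrpl42 only to 0.0092.

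For other genes of mitochondrial protein synthesis, the shares that fell stand beside 22.9% of all genes and 58.1% of the members, and the differences in share were not tested. Of 17 translation factors tested, 9 (52.9%) fell and 1, Mtif2 (0.58), rose, with a median of -0.34. Tufm, the elongation factor that brings tRNA to the ribosome, was at -1.15, Rmnd1 at -1.02 and Gfm2, a ribosome recycling factor, at -0.87. Of 21 mitochondrial aminoacyl-tRNA synthetases and related enzymes, 10 (47.6%) fell and 1, Kars (0.46), rose (median -0.36). With Agilent's processed signals the medians of these lists were -0.59 and -0.66, beside -0.57 for the members. Vars2, which charges valine tRNA, fell furthest, at -2.42, -2.45 and -2.09, 5.0-fold lower (limma, adjusted p = 0.000788), and Gatb (-1.48) and Fars2 (-1.45) followed.

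Among 37 genes for mitochondrial transcription, RNA processing and ribosome assembly, 14 (37.8%) fell and Trub2 (0.54) and Noa1 (0.37) rose (median -0.26). Hsd17b10, a dehydrogenase that is also part of mitochondrial RNase P, was the lowest at -1.87, followed by the assembly GTPases Mtg2 (-0.73) and Mtg1 (-0.71). Without loess and centred on all gene spots, the medians of these 3 lists turned to 0.51, 0.53 and 0.70, with 10, 11 and 28 genes higher. In that setting the median of all genes was 0.77, above those of the 3 lists, and 60.0% of all genes rose. Under that scaling Vars2, Gatb, Fars2 and Hsd17b10 stayed below 0.

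Set beside the respiratory chain, some of whose subunits these ribosomes make, and beside the ribosome of the cytosol, the members lay in between. The nucleus-encoded subunits of the respiratory chain and ATP synthase had a median of -2.04 after loess. All 74 tested fell, 73 of them (98.6%) at least 2-fold. Of all genes tested 22.9% fell and 9.68% were called lower. Ndufb9 of complex I, at -2.76, -2.92 and -3.03, was 7.48-fold lower, and Uqcrb of complex III (-2.87) and Cox6a1 of complex IV (-2.77) were close to it. The lowest members did not reach the median of this list. The proteins of the cytosolic ribosome had a median of 0.36, with 30 of 78 (38.5%) higher, against 24.5% of all genes. Lower were 0 of these proteins, also 0 at an unadjusted p under 0.05 in limma. Rps24 (1.32), Rpl7 (1.07) and Rpl23 (0.98) were the highest of them, values that are uncertain where near-identical copies share a probe. Without loess and centred on all gene spots, 34 respiratory genes fell and 4 rose, and all 78 cytosolic ribosomal protein genes rose. In that setting 6.94% of all genes tested fell and 60.0% rose.

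**Figure D3:**
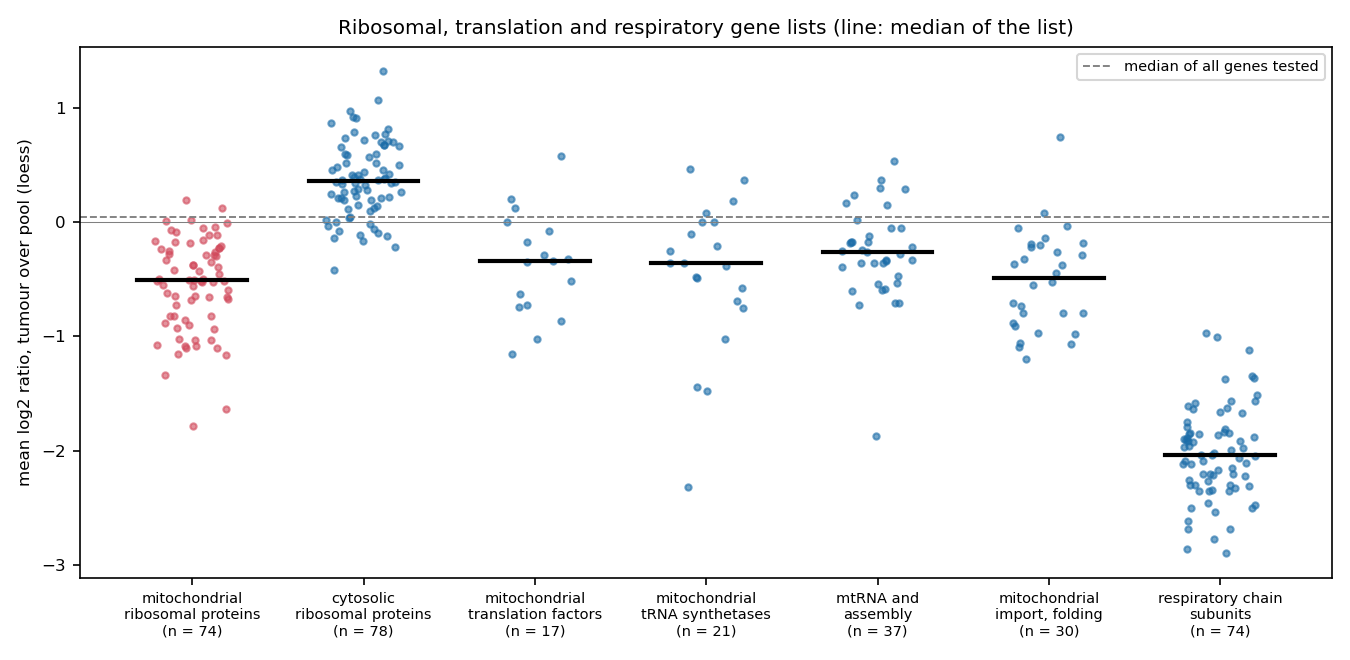
Mean log2 ratio of tumour over pool after loess (vertical), 1 point per gene, with a bar at each list's median and a dashed line at the median of all genes. The members (red) centre on -0.51, between cytosolic ribosomal proteins at 0.36 and respiratory chain subunits at -2.04; centred on all gene spots without loess these medians were 0.67, 2.21 and -0.41.

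That order held in each of the 15 settings computed, the one reported included. The members' median was below that of the cytosolic ribosomal proteins on the log2 scale, with differences of -1.54 to -0.81, and the respiratory median was below the members' with differences of -1.58 to -1.09. The settings reuse the same 3 arrays and are no independent evidence. A change of centring alone shifts all genes alike and cannot alter these differences. The 3 settings without loess thus gave the same values, -1.54 and -1.09. Agilent's processed signals and the authors' deposited table also gave the same values, -0.85 and -1.50. Parietal cell markers fell with the respiratory list in every tumour. The part of parietal cells in this order was not tested.

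Several members share their start region with another gene. Of the members with a promoter window, 22 lie head to head with a gene on the other strand whose start is under 500 bases away. Of these 21 were tested, and 14 (66.7%) were lower after loess, with a median of -0.50. That share stands beside 58.1% of all members and 22.9% of all genes, and the differences were not tested. Mrpl46 and Mrps11, of the large and the small subunit, start 42 bases apart on chromosome 7. The stretch between them, at chr7:78783090-78783130 (+ strand) in GRCm38.p6, is printed because both genes start at its ends and their values differed. None of the motifs stands in this stretch. The longer promoter window of Mrps11 holds the YY1 letters outside the stretch, while the window of Mrpl46 holds none of the motifs.
Mrps11 and Mrpl46: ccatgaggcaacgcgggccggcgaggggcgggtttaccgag
Mrpl46 was at -0.49, -0.63 and -0.42 and fell (mean -0.51 ± 0.11, limma adjusted p = 0.0149), and Mrps11 was above 0 in each tumour. The gap of Mrps11 over Mrpl46 was 0.85, 0.79 and 0.47 on replicates 1, 2 and 3. These are different probes on the same arrays, and the gap was not tested.

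Over the 19 head-to-head pairs with both genes tested, the median was -0.50 for the members and -0.02 for their partners, counting Mrps11 as the partner. The partner was the higher gene in 16 pairs (84.2%). That is near the background, since on average 80.3% of all genes tested lay above the member of a pair. Of the partners 14 did not pass the test, and the 4 that fell (21.1%) compare with 22.9% of all genes. Eme1, a nuclease subunit that starts 48 bases from Mrpl27 (-0.92), was the 1 partner that rose (0.48, limma adjusted p = 0.0261). Those that fell were Tmem63b (-1.16) beside Mrpl14, Klc4 (-1.23) beside Mrpl2, the complex I subunit gene Ndufb5 (-1.84) beside Mrpl47 and Ptcd2 (-0.61) beside Mrps27 (-0.38). Mrpl55 and Mrpl30 fell where their partners 2610507I01Rik (-0.02) and Mitd1 (0.05) lay near 0.

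**Figure D4:**
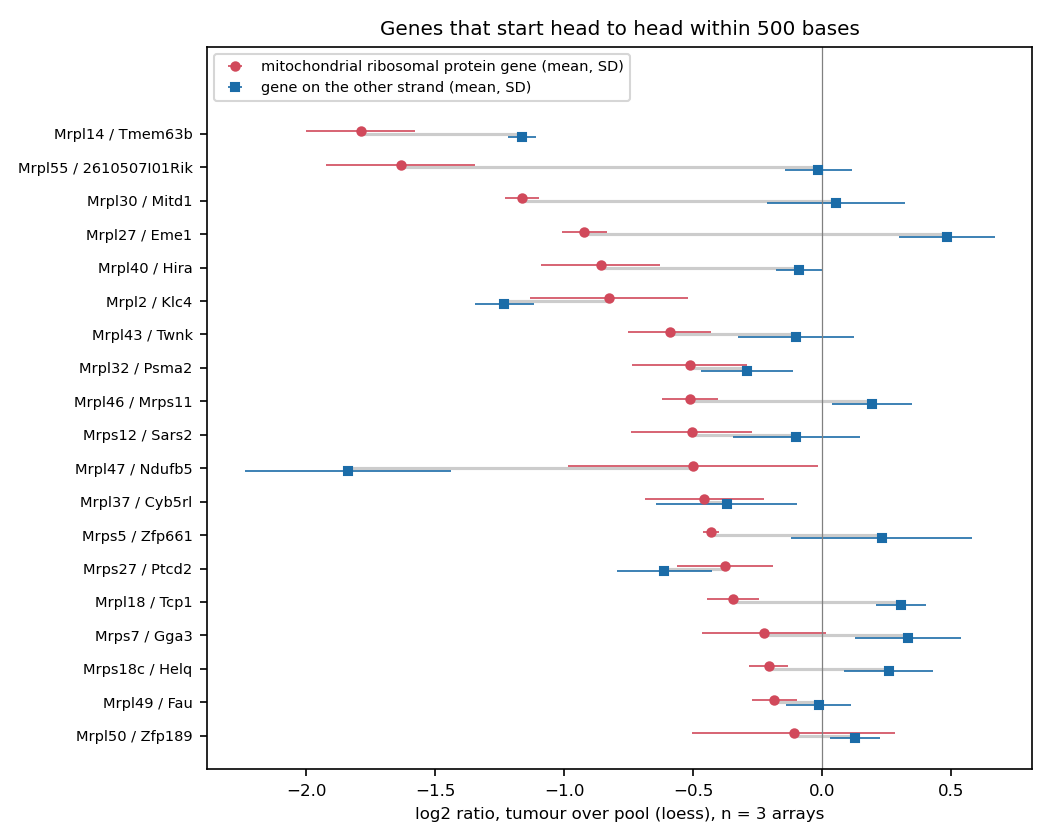
Mean log2 ratio after loess (horizontal, bars are the SD over 3 arrays) of members (red circles) and of the genes that start within 500 bases on the other strand (blue squares), 1 pair per line. Partners lie to the right of the member in 16 of 19 pairs (84.2%), near the 80.3% of all genes that lie above a pair's member on average; the sign of the members' values depends on the scaling, as their median was 0.67 without loess when centred on all gene spots.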

How the data were processed

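The 3 tumours and the pool were measured on 2-colour Agilent arrays of 1 slide, from 250 ng of total RNA each, per the labels. Intensity values are mean spot signals and median local backgrounds from Agilent Feature Extraction, version 10.7.3.1 per the file headers and 9.5.3 per the submitters' processing notes. Per the file headers, the scanner's log10 ratio divides the red processed signal by the green one, and the table deposited by the authors has log2 ratios, tumour over pool: 99.8% to 99.9% of its filled values lay within 0.01 of the scanner ratio.

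Signals were background-corrected with normexp (offset 50) and normalised by loess within arrays in limma 3.58.1 under R 4.3.3. Control and outlier-flagged spots were dropped, and repeat spots averaged. A probe was kept if its red, or its green, was well above background on every array (24164 probes), and the brightest kept probe stood for a gene. Probes were named through accessions in a RefSeq table (26055 of 39429), otherwise by the files. Each gene's ratios were fitted with lmFit and eBayes and tested against 0 (prior degrees of freedom 2.45), checked on simulated data. Signals by channel are those after loess and Aquantile.

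The members and the gene lists were chosen with earlier results of these data known. Genes were named by rule: called members, the 4 highest and lowest of each subunit, and the 3 genes with the largest ratio among those passing in each list. Members with a role in a named place of the ribosome, several or repeated probes or a head-to-head partner, and genes that rose in a falling list, were named after their values were seen. Precision is limited by the number of arrays.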

Additional observations from a re-analysis of the deposited data

How the results depend on the processing

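The 13 other ways of processing, and 1 added after seeing the data, reuse the same arrays. Members called lower numbered 13 as reported, 8 with Agilent's processed signals, 8 in the authors' deposited table, 8 with an offset of 0, 11 to 12 with 1 replicate left out, and 12 to 13 under the other choices of filter, probe and centring made after loess. Without loess they numbered 0 when centred on all gene spots, 2 on spike-ins and 1 on the tested genes (the added setting), and 17, 0 and 0 were called higher. Of all 19434 genes, 1882 were called lower as reported and 3079 with Agilent's processed signals. Without loess 556, 2726 and 2130 of them were called lower and 7747, 2795 and 3087 higher. Members passing as lower without loess numbered 0, 3 (4.05%) and 12 (16.2%), against 6.94%, 24.1% and 30.9% of all genes. Passing as higher were 53 (71.6%), 0 and 8 (10.8%), against 60%, 20.3% and 30.8%. With 1 replicate left out, 27 to 33 (36.5% to 44.6%) passed as lower, against 14.8% to 17.7% of all genes. None passed as higher there, against 14.3% to 17%. The members' median was 0.67, -0.17 and -0.085 without loess and -0.57 to -0.45 in every other setting. The cause of the difference between scalings was not tested beyond the brightness values given. Centred on all gene spots without loess, these named members that fell turned above 0 (log2 ratio): Mrpl10 0.26, Mrpl12 0.54, Mrpl16 0.55, Mrpl2 0.62, Mrpl20 0.50, Mrpl23 0.86, Mrpl24 0.71, Mrpl27 0.38, Mrpl30 0.23, Mrpl34 0.66, Mrpl41 0.25, Mrpl46 0.61, Mrpl51 0.53, Mrpl53 0.28, Mrpl54 0.20, Mrps12 0.85, Mrps18a 0.73, Mrps21 0.53, Mrps23 0.27, Mrps24 0.13, Mrps25 0.62, Mrps27 0.46, Mrps34 0.31 and Mrps5 0.40. So did these other genes: Dap3 0.65, Gfm2 0.21, Grpel1 0.19, Mrpl42 0.0092, Mrpl57 0.61, Mrpl58 0.36, Mtg1 0.42, Mtg2 0.44, Pam16 0.31, Ptcd2 0.47, Ptcd3 0.95, Rmnd1 0.19, Timm8b 0.46 and Tufm 0.11. On spike-ins, Mrpl23 (0.013), Mrps12 (0.0054) and Ptcd3 (0.097) turned, and on the tested genes they were at 0.10, 0.095 and 0.19. No paired analysis was possible because the pool is 1 sample on every array. With 3 arrays, 1 dye orientation and 1 pool, small ratios of single members are uncertain. That includes those that passed the test narrowly after loess, such as Mrpl19 (-0.29, limma adjusted p = 0.0489).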

Other observations

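Machinery that imports and folds mitochondrial proteins, which includes newly made ribosomal proteins, had a median of -0.49 over 30 genes after loess, close to that of the ribosomal proteins. Of these genes 18 (60.0%) fell, against 22.9% of all genes tested, and Tomm20, an outer membrane receptor, rose (0.75). Grpel1 (-1.20), a partner of the import motor, Timm8b (-1.10), a chaperone of the space between the membranes, and Pam16 (-1.06), a motor subunit, were the lowest. Without loess and centred on all gene spots, the list's median was 0.77 with 24 genes higher, and those 3 genes turned above 0. The median of all genes was also 0.77 in that setting, and 60.0% of them rose.

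Among 11 regulators of mitochondrial biogenesis, 5 (45.5%) fell and 3 (27.3%) rose after loess, against 22.9% and 24.5% of all genes tested. Ppargc1a, a coactivator of mitochondrial genes, was at -1.76, -2.89 and -2.66 (limma, adjusted p = 0.00316), with Ppargc1b at -1.41, Esrra at -1.66 and Nfe2l2 at -1.74. Esrrg, which also stands in the parietal cell list, fell too, with a tumour signal at or under the lowest one well above background on each array, so no fold is given. Without loess and centred on all gene spots, 3 of the 11 fell (Ppargc1a, Ppargc1b and Esrrg) and 6 rose. In that setting 6.94% of all genes tested fell and 60.0% rose. After loess, Gabpb1 (0.55), Yy1 (0.44) and Myc (0.79) rose, and Gabpa (-0.13) and Nrf1 (0.14) did not pass the test.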
